A study of Mus musculus with 3 samples.

Results

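Cells recovered from lung metastases after repeated passage through mice (JC-M3) were compared with the starting culture of the same line (JC-WT), to see what had changed in net terms between the beginning and the end of the selection. JC is a mouse mammary carcinoma line, and the labels call its cells epithelial-like and their genotype WT in every sample. The comparison uses 2 of the 3 libraries of the series. The third, JC-P, came from tumours grown in the mammary fat pad for 14 days and shows which net differences were already there before the passages through the lung. JC-M3 was made from cells derived from JC-P by 3 rounds of tail vein injection, with lung lesions taken after 28 days and opened with collagenase. JC-WT carries only the treatment label WT, while the other two share the treatment label metastasis, so the fat pad origin of JC-P is known from the protocol alone. The submitters' text uses the word parental for JC-P, and here the starting cells are JC-WT. All RNA came from cells in culture. Each population is 1 library, so every difference below describes a pair of libraries, without a replicate, a significance test or a p-value.

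Levels are in TPM, an abundance scaled for gene length and library size, with values given in the order JC-WT, JC-P, JC-M3, and differences are log2 ratios of TPM + 0.5. Features averaging at least 1 TPM across the libraries are called measured, and these were 14527 of 55471. The added 0.5 understates the differences of low genes. Whole read numbers were recovered from the values, and the intervals in parentheses are 95% exact counting intervals of the plain log2 TPM ratio. The ratio printed for a weakly expressed gene may therefore fall outside them. Only counting error enters these intervals, and the spread between cultures does not. At the edge of the filter, Gm37892 was just inside with a mean of 1.00 TPM (0, 0 and 3.00 TPM) and Tgfbr3l just outside (1.14, 1.51 and 0.348 TPM). Because the mean takes in all 3 libraries, some low genes were measured only through their level in JC-M3. Among these are Col1a2, P3h4, Tgfb2, Postn, Itgb8, Tnf and Epgn, and their counting as higher follows in part from the filter.

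Cells that reach the lung through the tail vein must lodge in its capillaries, survive and grow out before they can be recovered. Gene groups long studied in that course are the contractile cytoskeleton, the extracellular matrix and the enzymes that fold, crosslink or cut it, cell junctions, secreted inflammatory signals and metabolism. Smooth muscle actin and its light chain are transcribed through serum response factor, which binds a sequence called the CArG box, and interferon-stimulated genes through factors that bind the interferon-stimulated response element.

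The libraries were of similar depth, at 18093400, 22132600 and 23386400 assigned reads, and mitochondrial transcripts took between 4.51% and 5.46% of TPM. The epithelial label was met only in part. Of 28 epithelial markers 12 were measured, Epcam, Cldn7 and Ap1m2 were at 0 in every library, and the E-cadherin gene Cdh1 had 0, 0.832 and 0.669 TPM, whereas the keratin gene Krt8 was abundant. The mesenchymal markers Vim (2528, 2674 and 2384 TPM) and Lgals1 (14853, 15330 and 15651 TPM) were high throughout. Few markers of host cells were found. Of 16 T and NK cell markers 0 were measured, with summed levels of 1.58 to 2.07 TPM, and 0 of 6 erythroid and 0 of 7 adipocyte markers. Measured were 4 of 18 myeloid markers (summed 52.7 to 77.7 TPM, with Ptprc, Adgre1, Itgam and Tyrobp at 0 in all libraries), 1 of 8 B cell markers (5.43 to 6.88 TPM), 4 of 14 endothelial markers (277 to 305 TPM, with Kdr and Cldn5 at 0), 4 of 13 alveolar markers (849 to 1081 TPM, with Sftpc, Sftpb and Nkx2-1 at 0) and 1 of 10 airway markers (1.11 to 9.80 TPM, with Scgb1a1 at 0). The fibroblast markers were different, with 9 of 14 measured and a summed level of 295, 453 and 1101 TPM. In JC-M3 most of that sum is Col1a1, which also counts below among the collagens, and without it the sums were 163, 193 and 152 TPM. The markers went both ways, with 4 past 2-fold upward and 2 downward, and Lum was at 0 in all 3. Pdgfra stood at 34.1, 47.6 and 20.1 TPM and Cd34 at 90.6, 26.5 and 61.7 TPM. The part of fibroblasts in the matrix results below was not tested, and in bulk RNA more cells of a type and more RNA per cell cannot be told apart.

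Between JC-WT and JC-M3, 892 features were at least 2-fold higher (6.14% of those measured) and 766 at least 2-fold lower (5.27%), and the median of all measured features was 0.0016. Of the higher features 254 were at least 4-fold and 23 at least 16-fold higher, and of the lower ones 190 and 13. The counting interval left out no change for 650 of the higher and 607 of the lower features. Protein-coding genes made up 478 of the higher and 488 of the lower features, but 11405 of all 14527 measured features, a larger part than of either set. Of the 11375 protein-coding genes with a chromosome, 4.16% passed 2-fold upward and 4.26% downward. The shares over all features given beside the gene lists below, 6.14% and 5.27%, are therefore above those of protein-coding genes.

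More of the gains than of the losses were present in the fat pad cells, where more of all features were higher than lower. In JC-P, 692 features (4.76%) were at least 2-fold higher than in JC-WT and 339 (2.33%) at least 2-fold lower. Of the 892 features higher in JC-M3, 356 were among them, which is 39.9% of the JC-M3 list and 51.4% of the JC-P list, 517 lay within 2-fold in JC-P and 19 were at least 2-fold lower there. Of the 766 lower features, 156 were already lower in JC-P, which is 20.4% of the JC-M3 list and 46.0% of the JC-P list, 589 lay within 2-fold and 21 went the other way, past 2-fold upward in JC-P. Both ratios share the JC-WT library, so an error in that library enters both and these shares are a description only. Abundance changes them, since above a mean of 10 TPM the share already present was 26.7% of 247 higher and 8.19% of 293 lower features. Of the other features past 2-fold in JC-P, 315 of the higher and 164 of the lower ones were within 2-fold of JC-WT in JC-M3, which includes features just under the threshold such as Fbn1 (1.12 in JC-P and 0.93 in JC-M3).

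**Figure D1:**
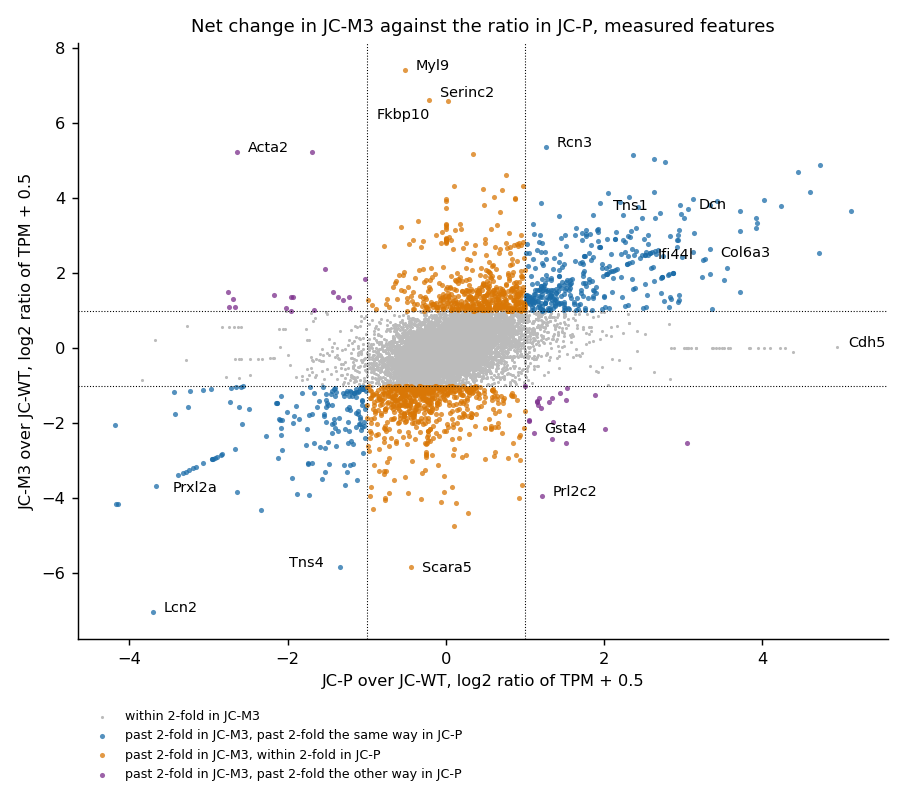
Log2 ratio of JC-M3 over JC-WT (vertical axis) against that of JC-P over JC-WT (horizontal axis) for the measured features, each from TPM + 0.5, with dotted lines at 2-fold and colours for the 3 classes of JC-P. Both axes use the same JC-WT library, so a shared tilt is built in. Myl9, at 7.43 and -0.51, lies far above the horizontal spread, and Lcn2, at -7.03 and -3.71, lies low on both.

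Genes of smooth muscle actin and myosin made up 3 of the 6 highest net ratios among genes averaging 10 TPM or more, and none was higher in the fat pad cells. Myl9, the regulatory light chain of smooth muscle myosin (chromosome 2, 156775420 to 156781658, GRCm38), stood at 2.08, 1.31 and 444 TPM, a net log2 ratio of 7.43 (6.96 to 8.65) from 13 and 3541 reads. Acta2, the smooth muscle alpha-actin gene (chromosome 19, 34241090 to 34255590), stood at 16.5, 2.22 and 642 TPM, a net ratio of 5.24 (5.08 to 5.50). Actg2, the enteric gamma-actin gene (chromosome 6, 83512905 to 83536265), stood at 1.44, 0.0977 and 72.6 TPM, with the same net ratio of 5.24 (4.85 to 6.62). Only JC-M3 was high for these genes, and for both actins JC-P was lower than JC-WT, by log2 ratios of -2.64 and -1.70. The other measured genes of the contractile apparatus lay within 2-fold. Among 24 measured contractile and smooth muscle genes, 3 were at least 2-fold higher and 0 lower, beside 6.14% and 5.27% over all features. Their median was 0.45 against -0.25 in JC-P. Other classical members stayed low, with the calponin gene Cnn1 at 0, 0.0556 and 0.107 TPM and Tagln at 1.12, 0.842 and 2.57 TPM, although 67.9% of the Tagln exons are overlapped on the opposite strand. The tropomyosin genes Tpm1 (416, 357 and 629 TPM) and Tpm2 (195, 231 and 304 TPM) were modestly higher, and Srf, which encodes serum response factor, was at 67.8, 49.97 and 68.6 TPM. Of 10 pericyte markers 3 were measured and 0 were past 2-fold, with Pdgfrb at 48.7, 46.5 and 87.9 TPM and Mcam at 9.68, 2.00 and 19.8 TPM, and Abcc9, Kcnj8 and Higd1b were at 0 in every library.

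The stretch before the start of Myl9 is shown because this gene had the highest ratio and its sequence holds a CArG box, in capitals. It is RefSeq sequence of GRCm38.p6, chr2:156775214-156775419, plus strand, 5′ to 3′.
Myl9: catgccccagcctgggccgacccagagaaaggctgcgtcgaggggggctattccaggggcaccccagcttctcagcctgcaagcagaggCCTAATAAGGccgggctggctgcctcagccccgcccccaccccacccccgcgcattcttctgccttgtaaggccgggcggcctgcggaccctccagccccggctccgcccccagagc
A CArG box was found, on either strand of the 250 bases upstream, in 482 of 32851 RefSeq promoters (1.47%) and in 125 of 9405 measured genes with an entry (1.33%). It was found in 5 of the 22 contractile list genes that have an entry (22.7%), Cnn2, Myl6, Myl9, Srf and Vcl. Their net ratios were not alike, as Vcl, the vinculin gene, was at 268, 216 and 215 TPM (25.5% of its exons overlapped on the opposite strand). No match to these letters was found in the same window of Acta2. A match is a description of the sequence and not a measured binding site. The list holds known contractile genes, so its share with a match describes the list and not the difference between the libraries.

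**Figure D2:**
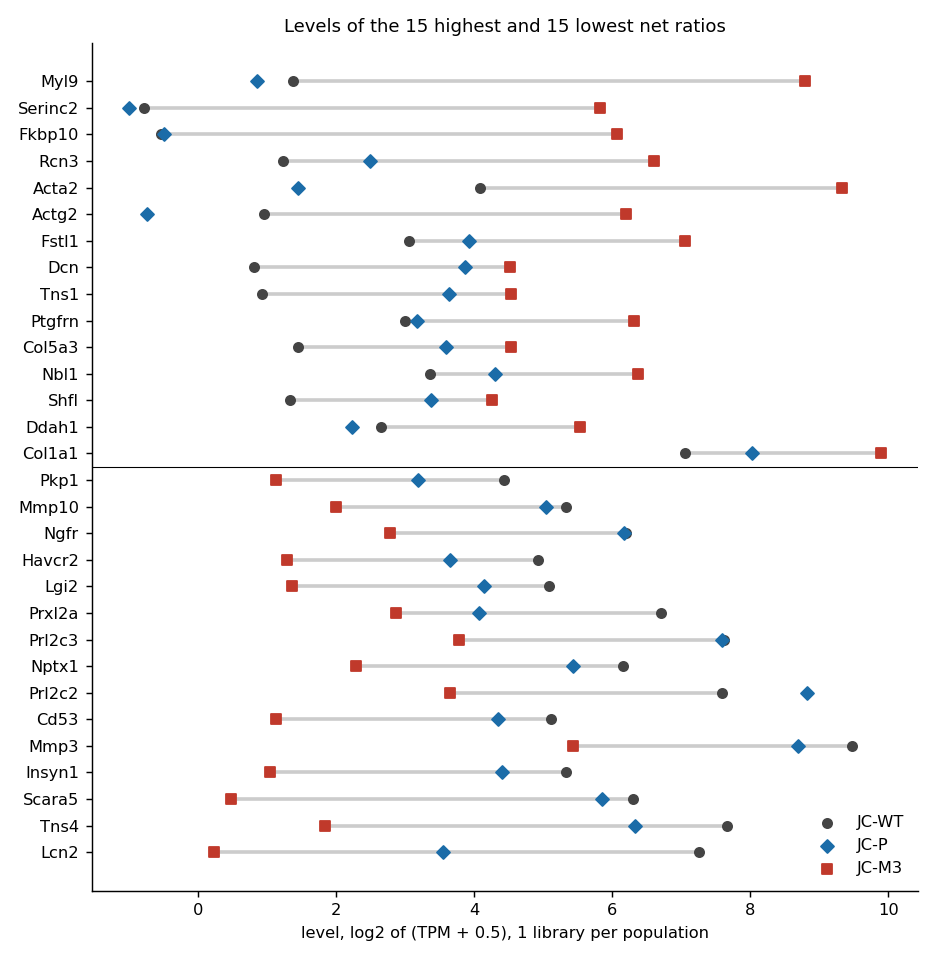
Level, as log2 of TPM + 0.5, of the 15 genes with the highest and the 15 with the lowest net ratios, with 1 marker per library and a bar joining JC-WT to JC-M3. Myl9, Acta2 and Actg2 are high in JC-M3 alone, whereas Dcn and Tns1 are already raised in JC-P.

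Genes of collagen and its maturation were higher in JC-M3 as a group. Of 16 measured collagen chain genes 8 were at least 2-fold higher and 0 lower, with a median of 1.02 (0.53 in JC-P), beside 6.14% higher over all features. Col1a1, the alpha-1 chain of type I collagen, stood at 132, 261 and 949 TPM, a net ratio of 2.84 (2.80 to 2.89). Its partner chain Col1a2 was far less abundant, at 0.255, 0.661 and 4.40 TPM, and passed the filter only through JC-M3. Col5a3, a chain of fibrillar type V collagen, stood at 2.22, 11.6 and 22.6 TPM, a net ratio of 3.09 (3.02 to 3.70), and Col5a1 at 35.8, 46.8 and 95.8 TPM. Both JC-P and JC-M3 were high for Col6a3 (5.23, 57.6 and 35.1 TPM), whereas Col6a2 (23.5, 32.1 and 105 TPM) and Col8a1 (16.5, 17.8 and 43.4 TPM) were high in JC-M3 only. Col3a1 was highest in JC-P, at 3.99, 46.0 and 8.76 TPM. The basement membrane chains Col4a1 (484, 301 and 332 TPM) and Col4a2 (382, 270 and 267 TPM) were lowest of the list, at -0.54 and -0.52. Of the 8 chains, 3 were already past 2-fold in JC-P: Col3a1, Col5a3 and Col6a3. Col1a1 was just under the threshold there, with a ratio of 0.98.

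Enzymes and chaperones that prepare collagen in the endoplasmic reticulum included some of the highest ratios. Fkbp10, a prolyl isomerase of collagen folding, stood at 0.190, 0.207 and 66.4 TPM, and with only 3 reads in JC-WT its interval was 6.90 to 10.73. Rcn3, a calcium-binding protein of the same compartment, stood at 1.84, 5.14 and 96.3 TPM, a net ratio of 5.37 (5.02 to 6.49). Transcripts on the opposite strand cover 16.9% of its exons, so its level carries some uncertainty. P3h4, which acts with collagen lysyl hydroxylase, had 0, 1 and 60 reads, at least 15.6-fold higher in JC-M3 against a floor of 3 reads. This gene passed the filter only through JC-M3. Plod2, the lysyl hydroxylase of collagen telopeptides, stood at 14.6, 26.1 and 69.5 TPM, a net ratio of 2.21 (2.10 to 2.40). Fkbp9 (55.7, 66.6 and 120 TPM) and the prolyl hydroxylase family gene P3h3 (7.25, 12.0 and 16.1 TPM) completed the 6 of 26 genes that were at least 2-fold higher. The share over all features was 6.14%. Loxl1, a lysyl oxidase that crosslinks elastin and collagen, was the 1 gene lower, at 125, 80.8 and 22.1 TPM and -2.47 (-2.64 to -2.36). Among the 6, only Rcn3 was already past 2-fold in JC-P.

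Other matrix genes were divided. Of 21 measured glycoproteins and proteoglycans 5 were at least 2-fold higher and 5 lower, beside 6.14% and 5.27% over all features, with a median of 0.08. Dcn, the small collagen-binding proteoglycan decorin, stood at 1.24, 14.0 and 22.5 TPM, a net ratio of 3.72 (3.71 to 4.68) of which most was present in JC-P. Fn1, encoding fibronectin, stood at 447, 606 and 949 TPM, the perlecan gene Hspg2 at 108, 158 and 226 TPM, and periostin, Postn, at 1.18, 0.560 and 4.69 TPM. Lower were the fibulin family genes Efemp1 (1378, 1779 and 667 TPM) and Fbln2 (20.4, 6.90 and 7.09 TPM), Tnc, which encodes tenascin C (12.7, 7.68 and 4.22 TPM), the hyaluronan synthase gene Has2 (29.1, 12.4 and 12.6 TPM) and Bgn (2.14, 1.45 and 0.789 TPM). Fbln2 and Has2 had reached their JC-M3 level in JC-P. Fstl1, a secreted follistatin-like glycoprotein, stood at 7.77, 14.6 and 132 TPM, a net ratio of 4.01 (3.89 to 4.30), and was the fifth of the higher members. Outside the list, Nbl1, a secreted BMP antagonist, stood at 9.71, 19.2 and 82.2 TPM. Both Fstl1 and Nbl1 were within 2-fold in JC-P, though close to that threshold, with ratios of 0.87 and 0.95 there.

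The matrix-cutting enzymes went the other way. Of 17 measured genes of matrix-cutting enzymes and their inhibitors 5 were at least 2-fold lower and 1 higher, although the median was 0.16. The shares over all features were 5.27% lower and 6.14% higher. Mmp3, stromelysin 1 (chromosome 9, 7445822 to 7455975), stood at 708, 414 and 42.5 TPM, a net ratio of -4.04 (-4.19 to -3.93). Mmp10, stromelysin 2, stood at 39.7, 32.3 and 3.47 TPM, and the gelatinase gene Mmp9 at 20.2, 7.35 and 4.24 TPM. Plau, the urokinase gene, stood at 326, 183 and 114 TPM, and Mmp19 at 32.3, 18.95 and 15.5 TPM with 28.3% of its exons overlapped on the opposite strand. In all 5 the order was JC-WT, JC-P, JC-M3 from high to low, and only Mmp9 was past 2-fold in JC-P.

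Genes that respond to YAP signalling were mostly higher, and those of TGF-beta signalling were divided. Of 22 YAP and TEAD targets 16 had a ratio above 0, 5 passed 2-fold upward and 1 downward (median 0.46, and -0.27 in JC-P). Of 24 TGF-beta targets and ligands 5 were higher and 2 lower (median 0.14, and -0.27 in JC-P). Among all features 6.14% were higher and 5.27% lower. Ccn1, a matricellular protein, stood at 208, 89.4 and 543 TPM and Ltbp2, a latent TGF-beta binding protein relative, at 35.9, 14.4 and 88.9 TPM. Both were past 2-fold in opposite directions in JC-P and JC-M3. The activin subunit gene Inhba stood at 2.01, 3.88 and 8.67 TPM and Pmepa1, a TGF-beta feedback gene, at 5.27, 5.70 and 16.9 TPM. The ligand gene Tgfb2, at 0.740, 0.526 and 3.73 TPM, passed the filter only through JC-M3. Id1, a BMP-responsive inhibitor of differentiation, was lower, at 191, 111 and 43.6 TPM, as was the activin antagonist gene Fst at 6.78, 1.16 and 2.13 TPM. Among its genes averaging 10 TPM or more, the TGF-beta list had a median of -0.01.

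Interferon-stimulated genes were higher in both derived populations, mostly by less than 2-fold. Net ratios were positive for 42 of 47 measured genes. At the 2-fold threshold 8 of them were higher and 1 gene lower, beside 6.14% and 5.27% over all features. The median was 0.65 in JC-M3 and 0.79 in JC-P, where 10 passed 2-fold upward, beside 4.76% over all features. Ifi44l, an interferon-induced gene on chromosome 3, stood at 12.6, 75.5 and 77.4 TPM, a net ratio of 2.57 (2.31 to 2.95). Isg15, a ubiquitin-like modifier, stood at 1806, 3392 and 4775 TPM, and Irf7, a transcription factor of the response, at 329, 659 and 738 TPM. The guanylate-binding protein genes Gbp3 (289, 567 and 638 TPM) and Gbp7 (59.6, 151 and 157 TPM, with 11.3% of its exons overlapped by another gene on its strand), the antiviral gene Rsad2 (50.6, 119 and 112 TPM), the RNA sensor gene Ifih1 (36.8, 73.0 and 79.5 TPM) and Stat2 (111, 221 and 232 TPM) had similar levels in both derived populations. Of these 8, Ifi44l, Gbp7 and Rsad2 were past 2-fold in JC-P, and the ratios of Gbp3, Irf7, Ifih1 and Stat2 there were 0.97 to 1.00, at the edge of the threshold. Ifi27 was the exception, at 567, 295 and 152 TPM and -1.89 (-1.98 to -1.81). Shfl, an interferon-induced inhibitor of frameshifting, stood at 2.02, 9.84 and 18.6 TPM and Irf5 at 6.29, 13.4 and 46.0 TPM, with 14.1% of the Irf5 exons overlapped on the opposite strand.

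The promoters of 4 of these genes are shown because they hold the core of the interferon-stimulated response element, GAAANNGAAA, in capitals on whichever strand it lies. They are RefSeq sequence of GRCm38.p6, 5′ to 3′ on the strand of the gene: Isg15 at chr4:156200819-156201068 (minus strand), Gbp7 at chr3:142530086-142530335 (plus), Gbp3 at chr3:142559794-142560025 (plus) and Rsad2 at chr12:26456453-26456702 (minus).
Isg15: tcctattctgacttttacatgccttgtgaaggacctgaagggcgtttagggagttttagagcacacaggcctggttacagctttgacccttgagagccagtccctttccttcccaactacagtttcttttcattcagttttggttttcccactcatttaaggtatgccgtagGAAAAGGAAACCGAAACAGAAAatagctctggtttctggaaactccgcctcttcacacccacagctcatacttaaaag
Gbp7: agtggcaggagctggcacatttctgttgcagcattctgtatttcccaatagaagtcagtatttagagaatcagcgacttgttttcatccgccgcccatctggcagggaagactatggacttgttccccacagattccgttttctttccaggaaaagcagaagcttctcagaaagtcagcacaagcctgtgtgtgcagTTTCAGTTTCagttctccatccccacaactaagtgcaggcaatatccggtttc
Gbp3: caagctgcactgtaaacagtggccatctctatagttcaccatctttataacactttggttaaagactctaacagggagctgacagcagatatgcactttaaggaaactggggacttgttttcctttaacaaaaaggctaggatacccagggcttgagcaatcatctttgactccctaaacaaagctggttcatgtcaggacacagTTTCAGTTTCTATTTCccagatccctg
Rsad2: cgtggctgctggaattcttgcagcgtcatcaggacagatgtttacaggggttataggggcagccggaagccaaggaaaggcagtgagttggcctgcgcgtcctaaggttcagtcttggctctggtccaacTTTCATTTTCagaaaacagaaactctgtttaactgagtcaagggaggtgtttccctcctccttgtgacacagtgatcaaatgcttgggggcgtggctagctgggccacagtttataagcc
Isg15 holds 3 overlapping matches and Gbp3 holds 2, while the other two hold 1 each. In the 250 bases upstream the core was found in 15 of the 35 interferon list genes with an entry (42.9%), in 305 of 9405 measured genes with one (3.24%) and in 978 of all 32851 promoters (2.98%). The list holds known interferon targets, so this share describes the list and not the difference between the libraries.

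**Figure D3:**
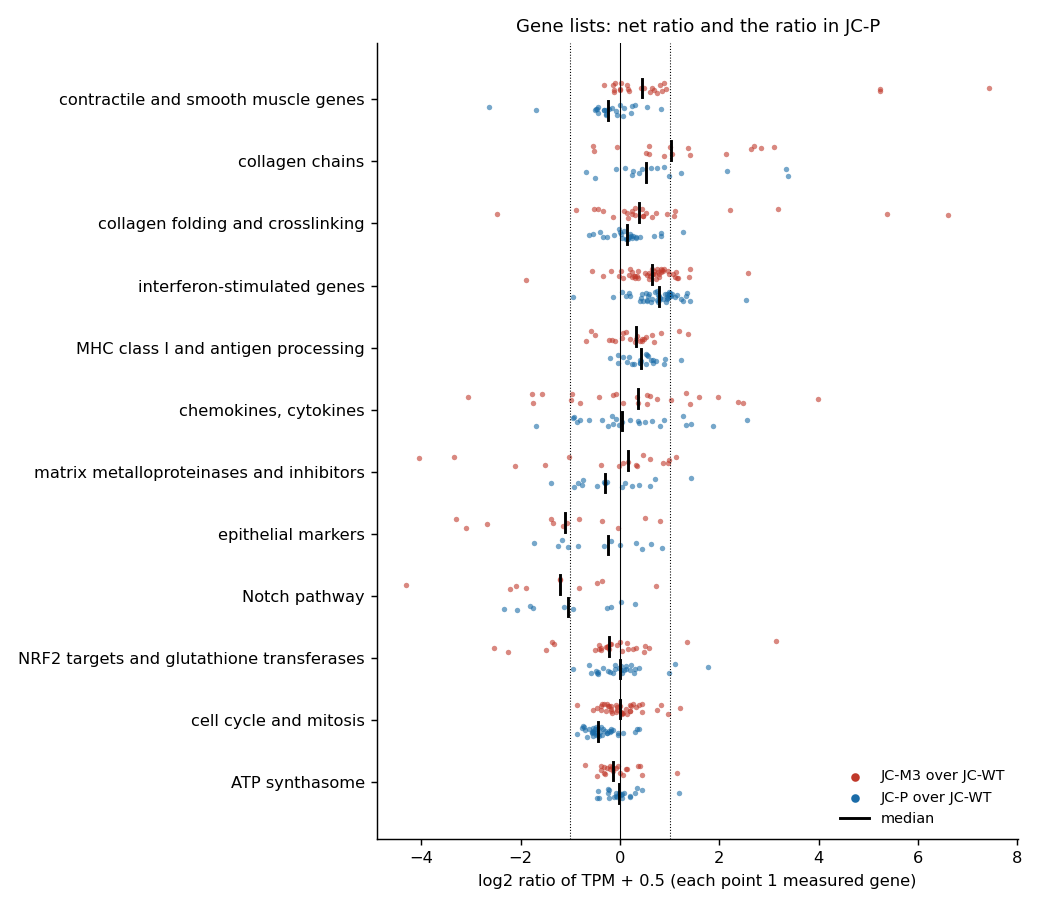
Log2 ratios of TPM + 0.5 of the measured members of selected gene lists, 1 point per gene, for JC-M3 (red) and JC-P (blue) over JC-WT, with bars at the medians and dotted lines at 2-fold. The interferon medians lie to the right of 0 in both (0.65 and 0.79), the collagen chain median lies further right in JC-M3 than in JC-P (1.02 and 0.53), and the Notch medians lie left of 0 in both (-1.20 and -1.04).

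Inflammatory signals changed in both directions. Of 25 measured chemokines, cytokines and related genes 8 were at least 2-fold higher and 4 lower, with a median of 0.36. The shares over all features were 6.14% higher and 5.27% lower. The monocyte attractant genes Ccl2 (119, 435 and 302 TPM) and Ccl7 (4.19, 27.2 and 25.7 TPM), Cxcl12 (43.1, 109 and 88.1 TPM) and the interferon-inducible Cxcl10 (32.8, 79.7 and 171 TPM) were past 2-fold in JC-P already. Ptgs2, the inducible prostaglandin synthase gene, was high in JC-M3 alone at 209.6, 190.4 and 825 TPM, as was Ccl5 at 89.9, 84.8 and 239 TPM. Tnf had 2, 9 and 123 reads, an interval of 3.70 to 8.65, and Il6 had 5, 14 and 36 reads. Csf3, the granulocyte growth factor gene, was lower at 44.3, 13.4 and 4.85 TPM, and past 2-fold in JC-P. Csf2 (6.75, 8.94 and 1.64 TPM), Cxcl16 (5.43, 4.08 and 1.496 TPM) and Ccl8 were the other lower members, and Ccl8 rests on 6 and 1 reads with an interval that includes no change (-8.46 to 0.10). Antigen presentation moved less, with 2 of 23 genes past 2-fold and a median of 0.32: the immunoproteasome gene Psmb9 (7.69, 18.5 and 20.6 TPM) and the peptide transporter gene Tap2 (87.0, 161 and 198 TPM). Among 15 checkpoint and recognition genes 0 were higher and Cd276, encoding the B7-H3 ligand, was lower at 34.0, 30.03 and 4.30 TPM. Cd274, which encodes PD-L1, stood at 6.58, 10.8 and 12.4 TPM. Exons of Csf2 (12.0%), Cxcl16 (18.3%), Tap2 (18.5%), Cd276 (11.4%) and Cd274 (14.1%) are overlapped on the opposite strand, so these levels are less sure.

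The lowest net ratio belonged to Lcn2, a secreted lipocalin that binds bacterial siderophores (chromosome 2, 32384633 to 32388252). Its levels were 152, 11.2 and 0.667 TPM, a net ratio of -7.03 (-8.79 to -7.03). Tns4, a tensin of focal adhesions, stood at 202, 79.5 and 3.07 TPM, a net ratio of -5.82 (-6.33 to -5.77), and was also past 2-fold in JC-P. Scara5, a scavenger receptor that takes up ferritin, stood at 77.9, 57.4 and 0.885 TPM, with the same net ratio of -5.82 (-6.97 to -5.99), and JC-P was near JC-WT. JC-P thus stood at a different point of the loss for each of the 3 genes with the lowest ratios. Prxl2a, a peroxiredoxin-like gene, was already low in JC-P (104, 16.3 and 6.82 TPM). Insyn1 (39.5, 20.6 and 1.56 TPM), the tetraspanin gene Cd53 (34.0, 19.8 and 1.67 TPM), the neuronal pentraxin gene Nptx1 (70.7, 42.8 and 4.39 TPM) and Lgi2 (33.3, 17.1 and 2.08 TPM) lay between, with JC-P within 2-fold but below JC-WT. Ngfr, the low-affinity neurotrophin receptor gene, was level in JC-P and lower in JC-M3, at 72.6, 71.5 and 6.39 TPM, a ratio of -3.41 (-3.76 to -3.26). Havcr2, which encodes the receptor TIM-3, stood at 29.7, 12.0 and 1.93 TPM. Slpi, a secreted protease inhibitor chosen after its values were seen because of its abundance, stood at 10440, 9365 and 1974 TPM, a ratio of -2.40 (-2.43 to -2.38).

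Most measured epithelial markers, several of them junction genes, were lower in JC-M3. Of the 12 measured epithelial markers 7 were at least 2-fold lower and 0 higher, beside 5.27% lower over all features, with a median of -1.10 against -0.25 in JC-P. The desmosomal plaque gene Pkp1 stood at 21.1, 8.57 and 1.68 TPM, a net ratio of -3.31 (-4.07 to -3.26), and Jup, encoding plakoglobin, at 48.2, 26.7 and 7.09 TPM. Ocln, the tight junction gene occludin, had 92, 24 and 1 reads, and its interval was -12.20 to -4.36. Krt8 (1503, 1873 and 681 TPM) and its keratin partner Krt18 (48.6, 48.5 and 18.4 TPM) were lower in JC-M3 alone, with 27.2% of the Krt8 windows of 50 bases shared with other genes. Pkp3 (72.6, 64.0 and 28.1 TPM) and Perp (62.9, 50.1 and 29.8 TPM) were the other lower members. Higher within 2-fold were Tjp1, the scaffold gene ZO-1, at 69.6, 95.3 and 98.3 TPM, and Elf3, at 1.26, 2.20 and 2.56 TPM. The E-cadherin gene Cdh1 went the other way as well, but fell below the filter. It had 0, 25 and 21 reads, and its net interval began at 2.03. The hemidesmosomal integrin gene Itgb4 stood at 54.4, 26.03 and 7.36 TPM, while Itgb5 (28.9, 32.4 and 98.5 TPM) and Itgb8 (0.455, 1.21 and 4.51 TPM) were higher. Mesenchymal markers did not move as a group, with 2 of 17 higher, 1 lower and a median of 0.05. Among 12 transcription factors of the epithelial to mesenchymal transition 1 was higher, Snai2 (15.8, 22.5 and 38.7 TPM), and 1 lower, Twist2 (35.4, 29.2 and 13.5 TPM), of which 46.5% of the exons are overlapped on the opposite strand. Zeb1 stood at 17.4, 24.6 and 34.7 TPM.

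Notch pathway genes were lower, in both derived populations. Of 10 measured genes 6 were at least 2-fold lower and 0 higher, beside 5.27% lower over all features, with medians of -1.20 in JC-M3 and -1.04 in JC-P. Already in JC-P, where 2.33% of all features were lower, 4 of the 6 passed 2-fold (Dll4, Dll1, Hey1 and Hes1). The ligand gene Dll4 stood at 13.8, 2.33 and 0.227 TPM, a net ratio of -4.30 (-7.39 to -4.79), and the ligand gene Dll1 at 29.5, 13.2 and 6.56 TPM. The target genes Hey1 (5.54, 0.932 and 1.12 TPM) and Hes1 (10.5, 2.61 and 4.29 TPM) were lowest in JC-P. The receptor gene Notch1 was lower in JC-M3 alone, at 62.2, 62.9 and 26.7 TPM, and Notch2 was higher within 2-fold, at 61.3, 75.9 and 102 TPM. Nrarp, a feedback regulator (5.48, 2.59 and 0.790 TPM), has 79.4% of its exons overlapped on the opposite strand, and Dll1 has 20.5%, so both levels are less sure.

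Wnt genes and growth factor genes changed singly. Of 13 measured Wnt ligands and feedback targets 3 were at least 2-fold lower and 1 higher, beside 5.27% lower and 6.14% higher over all features. The antagonist gene Sfrp1 had 141, 104 and 2 reads, with an interval of -9.55 to -4.61, the ligand gene Wnt7b stood at 65.1, 55.9 and 11.5 TPM and the feedback gene Nkd1 at 18.1, 19.2 and 2.97 TPM. The ligand gene Wnt10b was higher, at 3.89, 3.04 and 28.2 TPM and 2.71 (2.50 to 3.23). None of these 4 was past 2-fold in JC-P. Of 31 receptor tyrosine kinases, neurotrophin receptors and ligands 4 were higher and 5 lower, beside the same 6.14% and 5.27%. Egfr, the epidermal growth factor receptor gene, stood at 2.58, 4.26 and 8.03 TPM and its ligand gene Epgn at 0.619, 0.674 and 7.82 TPM, whereas the ligand genes Tgfa (5.86, 5.02 and 0.921 TPM) and Areg (11.5, 10.3 and 5.04 TPM) were lower. Gas6, a ligand of the TAM receptors, stood at 12.2, 23.9 and 2.06 TPM.

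Among nuclear genes of energy metabolism, which the title of the series concerns, few passed 2-fold between the ends of the selection. The ATP synthasome joins ATP synthase to the carriers that bring it phosphate and ADP. Of its 23 measured genes 1 was past 2-fold, mt-Atp8, with a median of -0.14. Of the mt-Atp8 exon bases, 21.1% overlap a neighbouring gene on the same strand. The nuclear members ranged from Atp5f1e at -0.70 to the phosphate carrier gene Slc25a3 at 0.45. Among 61 nuclear respiratory chain subunits 1 was higher, Cox7a1, which rests on 1 and 7 reads, and 1 was lower, Cox7c, with 39.3% of its windows shared, and the median was -0.18. The mitochondrially encoded protein genes differed from these, with 10 of 13 above 0, 2 past 2-fold upward and a median of 0.22 (0.36 in JC-P). However, mt-Co2 and mt-Co3 share 100% of their windows with other genes, mt-Atp6 99.2% and mt-Nd3 98.3%. The median of this list and its difference from the nuclear genes are therefore less sure. The complex I subunit gene mt-Nd6 stood at 289, 484 and 803 TPM, a ratio of 1.47 (1.36 to 1.59), and mt-Nd5 at 1292, 1708 and 2346 TPM. Idh1, the cytosolic isocitrate dehydrogenase gene, was the 1 gene past 2-fold among 25 of the citric acid cycle and glutamine, at 579, 505 and 103 TPM and -2.48 (-2.56 to -2.42), and its mitochondrial relative Idh2 stood at 173, 184 and 91.7 TPM. Of 28 NRF2 targets and glutathione transferases 5 were lower and 2 higher, beside 5.27% and 6.14% over all features. Mgst1 (44.6, 48.7 and 15.6 TPM) and Mgst3 (119, 87.9 and 45.8 TPM) encode microsomal transferases, and Hmox1 encodes heme oxygenase (264, 136 and 105 TPM). Gsta1 has 91.1% of its windows shared, and its value is not read further. Gstt1 stood at 5.97, 7.47 and 16.0 TPM, and Gstk1 at 2, 20 and 62 reads. The glutamine transporter gene Slc38a3 was lower, at 87.9, 135 and 11.6 TPM, while its relative Slc38a1 was higher, at 2.81, 3.08 and 11.2 TPM. Of 26 cholesterol and fatty acid synthesis genes 25 lay within 2-fold, as did 38 of 39 cell cycle genes, for which the median was -0.01 in JC-M3 and -0.44 in JC-P. Of the cell cycle genes 19 had a net ratio above 0 and 20 below. Mki67, the proliferation marker gene, was among the highest of them, at 174, 215 and 339.6 TPM. Ube2c was among the lowest, at 237, 142 and 172 TPM, with 22.8% of its exons overlapped on the opposite strand.

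A few abundant genes passed 2-fold in one direction in JC-P and in the other in JC-M3. Besides the actins, Ccn1 and Ltbp2, these were mostly genes that peaked in JC-P. Gsta4, a glutathione transferase for lipid peroxidation products, stood at 243, 525 and 50.7 TPM, a net ratio of -2.25 (-2.42 to -2.11). Itgbl1 stood at 22.3, 55.8 and 7.996 TPM, Serf1 at 17.6, 39.9 and 6.28 TPM (16.8% of its exons overlapped on the opposite strand) and the class I gene H2-T24 at 16.3, 42.1 and 6.21 TPM. Prl2c2, a prolactin family gene, stood at 193, 450.1 and 12.0 TPM and Ly6c1 at 10.9, 28.7 and 2.43 TPM, but they share 89.0% and 34.6% of their windows with other genes. For Prl2c3, at 196, 192 and 13.2 TPM, that share was 69.3%, so how reads divide within the prolactin cluster is uncertain. Cdh5, the endothelial cadherin gene, had 2, 490 and 3 reads, so its high level in JC-P left no net difference.

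Some genes had reads at one end of the selection and 0 at the other. With predicted and small RNA names left out, 28 genes had 0 reads in JC-WT and at least 30 in JC-M3, of which 7 also had 0 in JC-P and 19 had between 1 and 29 reads there. Another 5 went from at least 30 reads in JC-WT to 0 in JC-M3. JC-M3 was the deeper library, with 23386400 assigned reads against 18093400 in JC-WT. It reaches 30 reads more easily and shows 0 less often, so the counts of 28 and 5 are not compared. Ptn, the heparin-binding growth factor pleiotrophin, had 0, 3 and 414 reads, at least 108-fold higher against a floor of 3 reads in JC-WT. Cacng7, a calcium channel subunit gene, had 0, 47 and 256 reads, at least 66.8-fold higher, and the defensin gene Defb25 had 0, 4 and 35 reads, at least 9.13-fold higher. The following were chosen after their values were seen. Heph, a copper-dependent iron oxidase gene, stood at 0, 0 and 7.46 TPM and the cadherin gene Cdh19 had 0, 0 and 180 reads, at least 102-fold and 46.9-fold higher. Bche, encoding butyrylcholinesterase, had 0, 0 and 187 reads, and Pros1, encoding protein S, had 0, 0 and 89. The junctophilin gene Jph2 had 0, 1 and 281 reads, the ephrin receptor gene Epha7 had 0, 1 and 229, and Gap43, a growth cone gene, had 0, 2 and 69. Tnfrsf11b, the decoy receptor osteoprotegerin, had 0, 29 and 162 reads. Serinc2, in the serine incorporator family, was near this pattern with 1, 0 and 895 reads (56.3 TPM in JC-M3), and its interval of 6.97 to 14.76 is wide for that reason. In the other direction, the olfactory receptor gene Or4c12 had 172, 413 and 0 reads, at least 73.3-fold lower in JC-M3, with 11.4% of its windows shared, and Fahd2a had 47, 61 and 0, at least 20.03-fold lower.

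The remaining genes among those with the highest ratios were Tns1, a focal adhesion tensin already raised in JC-P (1.40, 11.9 and 22.5 TPM, 3.60 with an interval of 3.75 to 4.29), Ptgfrn, a tetraspanin partner (7.496, 8.54 and 79.3 TPM, 3.32), and Ddah1, which degrades an inhibitor of nitric oxide synthase (5.75, 4.20 and 45.7 TPM, 2.89). Tns1 and Tns4 belong to the same family and went opposite ways.

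Net differences were also uneven along the genome. Over 11375 protein-coding genes with a chromosome the median was -0.01, and 14 of 20 chromosome medians lay within 0.1 of 0. Chromosome 13 had the lowest median, -0.44 over 437 genes, with 83.1% of them below 0 and 51 at least 2-fold lower (11.7%, beside 4.26% over all protein-coding genes). Chromosome 2 followed at -0.31 over 927 genes and chromosome 14 at -0.29 over 387. Chromosome 10 had the highest median, 0.41 over 556 genes, with 85.2% above 0, and chromosome 3 had 0.31 over 549. In JC-P the medians of chromosomes 13, 2, 14 and 3 were between -0.08 and 0.04, and that of chromosome 10 was 0.19. Lcn2 and Dll4 lie on chromosome 2 and Prl2c2 and Ocln on chromosome 13, and their ratios were far beyond the chromosome medians. Myl9 also lies on chromosome 2 and was higher. With chromosome medians subtracted, the medians of the interferon, collagen, Notch and epithelial lists kept their signs. Those of the integrin, cell cycle, hypoxia response and epithelial to mesenchymal transition factor lists, all near 0, changed sign. DNA copy number was not measured, and its part in these medians and ratios was not tested.

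**Figure D4:**
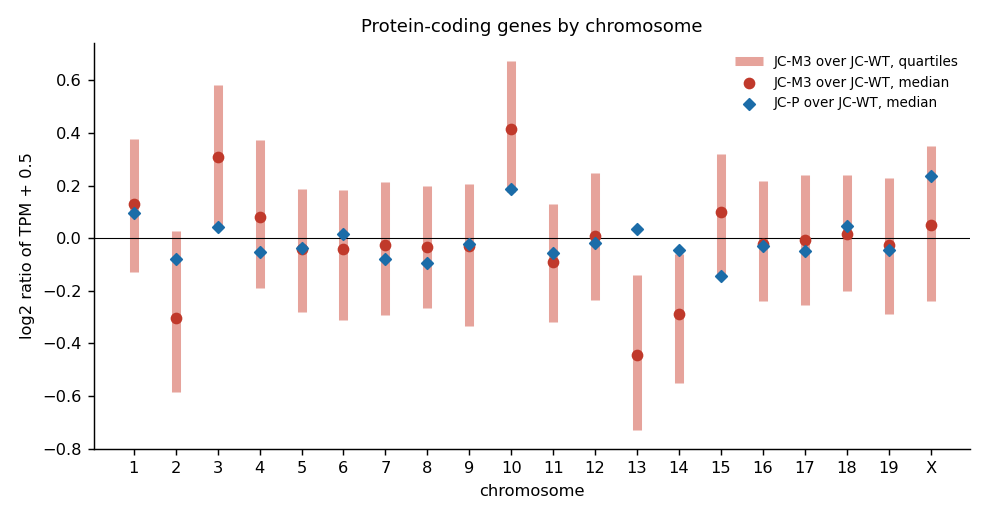
Median log2 ratio of the protein-coding genes of each chromosome, in JC-M3 and in JC-P, each over JC-WT, with bars for the quartiles in JC-M3. In JC-M3, chromosomes 13 (-0.44), 2 (-0.31) and 14 (-0.29) lie below and chromosomes 10 (0.41) and 3 (0.31) above the others, whose medians run from -0.09 to 0.13.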

How the data were processed

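The authors deposited TPM values for 55471 features in 3 libraries, per the file headers. Quality control with FastQC 0.11.9, alignment software STAR 2.7.9a and the counter featureCounts appear in the submitters' processing notes, beside mm10 and GRCm38. Which annotation release and strand setting were used is not given in the sources used here. Merged exon lengths of GENCODE M21 were found for 55230 features, and TPM times length gave whole reads within 0.01 for 98.4%, 98.5% and 98.5% of expressed features with a length. Where it did not, rounded reads were used, as for Isg15 and Hspg2.

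The design allowed for counts or TPM, and TPM was used as deposited. Log2 ratios of TPM + 0.5 were taken over features averaging 1 TPM or more, and 2-fold was the threshold. Intervals are exact conditional (Clopper-Pearson) at 95% and floors are 3 reads in the library at 0, and neither covers more than counting error, since duplicate reads are not independent molecules.

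The comparison, the 49 gene lists and the naming rule were chosen with earlier results of these data known. The naming rule took features averaging 10 TPM or more that have a proper gene name (no predicted gene or clone). Among these, the 15 ratios at either end and the 6 most extreme per class of JC-P and direction were named. Measured features with such a name, at 0 in JC-WT or JC-M3 and at 10 TPM or more in the other, were added. The 3 highest and 3 lowest members per list and the measured markers were named too. Other list members past 2-fold, and other list members given with values, were chosen after their values were seen. The values of 1 list member are not reported here. Windows of 50 bases shared with other genes and exon overlap were computed as a check on named genes. Alternatives covered scaling, pseudocount, filter, threshold and subtraction of chromosome medians. Code was tested on simulated data and ran in Python 3.11.15 (pandas 2.3.3, numpy 2.4.6, matplotlib 3.10.9, scipy 1.17.1).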

Additional observations from a re-analysis of the deposited data

How the results depend on the processing

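The numbers of features higher and lower in JC-M3, and of those already so in JC-P, depended on pseudocount, filter and threshold. In the order higher, lower, higher already and lower already, they were 522, 471, 140 and 78 with a pseudocount of 2, 247, 293, 66 and 24 for features averaging 10 TPM or more, 478, 488, 144 and 71 for protein-coding genes, 2039, 1813, 902 and 465 at 1.5-fold, and 254, 190, 93 and 28 at 4-fold. With no filter on the mean, the higher count was 1544 and the lower already count 358. All 4 counts stayed within 1.5 times under median-ratio scaling, without mitochondrially encoded genes and with a pseudocount of 0.1, as did both already counts when 50% of the net log2 ratio counted as present (470 and 213). The higher share of all calls ranged from 45.7% to 57.4%, and was 53.8% as reported. Of the 337 named genes that were measured, 97 moved with a pseudocount of 2. A gene counted as moved if its new ratio lay outside its counting interval and at least 0.1 from the reported ratio. Some reported ratios of low genes lay outside the interval already. No named gene past 2-fold changed sign, but the alternatives run for genes could not have changed it. A pseudocount cannot alter the sign of a ratio. The median of all features was only 0.02 under median-ratio scaling and 0.01 without mitochondrially encoded genes. List medians near 0 changed sign, such as integrins (-0.01, and 0.30 for genes averaging 10 TPM or more), and the basal mammary median went from 0.89 to -0.07 with no filter. No paired analysis was possible because each group has 1 library. Depth limits calls on few reads, as for Ccl8, where 6 reads against 1 gave an interval that includes no change.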

Other observations

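Within chromosomes the net difference was not even, in a split at 80 Mb chosen after the chromosome medians were seen. On chromosome 2 the 349 protein-coding genes before that point had a median net log2 ratio of -0.04, and the 578 after it had -0.44, with 85.5% of them below 0. In JC-P the medians of the same stretches were 0.10 and -0.19. On chromosome 13 the medians were -0.36 over 311 genes and -0.72 over 126 genes, with JC-P at 0.04 and 0.02. On chromosome 10 both sides were raised in JC-M3, at 0.44 over 277 genes and 0.41 over 279, whereas in JC-P the medians were 0.04 before and 0.29 after that point. Read in 10-Mb bins of at least 20 genes, every 1 of the 11 bins of chromosome 2 after that point lay between -0.56 and -0.34, and the 4 bins of chromosome 10 there lay between 0.22 and 0.37 in JC-P.

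The long noncoding RNA H19, from the imprinted growth gene list, peaked in JC-P (1.36, 24.1 and 4.74 TPM, in the order used above), whereas Adm, which encodes adrenomedullin, was equally high in both derived populations (2.88, 12.9 and 12.4 TPM). The drug efflux gene Abcb1a was higher in JC-M3 (8.81, 14.0 and 19.6 TPM), although 16.9% of its sequence windows occur elsewhere, and the multidrug resistance genes Abcc3 (1.83, 1.12 and 0.205 TPM) and Abcc4 (31.6, 27.3 and 15.1 TPM) were lower. The water channel gene Aqp5, on the alveolar marker list, stood at 264, 167 and 72.2 TPM, and the secreted airway gene Bpifb1 at 9.27, 6.31 and 0.403 TPM.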
